A study of Mus musculus with 46 samples.

Results

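The genes of the circadian clock were followed through the withdrawal time course in BNST (bed nucleus of the stria terminalis), which belongs to the extended amygdala. Members were all probesets of the Affymetrix mouse genome array whose platform symbol was Clock, Per1, Per2, Per3, Cry1, Ciart, Nr1d1, Nr1d2, Dbp or Tef. This gave 24 probesets of 45037, for 10 genes of 18193 with a named probeset. Per3 had 6 probesets, Clock 4, Per2 and Tef 3 each, Nr1d2 and Dbp 2 each, and Per1, Cry1, Ciart and Nr1d1 1 each. For a gene with several, the probeset with the highest mean is reported as the gene, and values of its other probesets are given beside results that turn on them.

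Adult male C57BL/6J mice had gone through 4 cycles of chronic intermittent ethanol vapor (CIE), each of 4 days with 16 h per day in the chamber, with 7 days of abstinence between cycles. CIE mice were given ethanol (1.6 g/kg) and pyrazole (1 mmol/kg), an inhibitor of alcohol dehydrogenase, by injection before each cycle, and control (Ctrl) mice were given saline with the same pyrazole and breathed air, so that pyrazole, handling and injection were common to all groups. Collection followed the end of the last session by 0 h, 8 h, 72 h or 7 d. Each treatment and time had 6 mice, with the exception of CIE 7 d with 4, and each of the 46 arrays held 1 mouse. Neither age in weeks nor the clock hour of collection is stated in the sources. Mice lived in a light/dark cycle, and the 72 h and 7 d collections lie whole days after the 0 h collection while the 8 h collection falls at another hour of the day, so Ctrl 8 h against Ctrl 0 h served as the clock-hour reference. Hours since the last session and hour of the day cannot be told apart within a treatment, whereas CIE and Ctrl at a given time share both.

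The molecular clock is a transcriptional feedback loop that runs in most cells. CLOCK and its partner BMAL1 (gene Arntl) bind E-boxes and drive the Per and Cry genes, Ciart, the REV-ERB receptors Nr1d1 and Nr1d2 and the output factors Dbp and Tef. PER and CRY proteins then repress CLOCK and BMAL1, the protein of Ciart (also called CHRONO) represses them as well, REV-ERB receptors repress Arntl, and DBP and TEF act through D-boxes on further targets that include Per genes. The suprachiasmatic nucleus sets the phase of other brain regions, and glucocorticoids can also induce Per1.

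Promoter sequence is shown for the members that hold the E-box letters CACGTG, since Ciart and Tef, the pair of members with called CIE effects, are among them, and for Per3, the single member with the D-box letters TTATGTAA. The 250 bases before the annotated start are given 5′ to 3′ on the strand of the gene, from RefSeq with the build GRCm38.p6, and capitals mark matches on either strand to the motifs searched. These were the E-box CACGTG, its weaker form CACGTT, the D-box TTATGTAA, its palindromic form TTACGTAA, the receptor half-site AGGTCA, the cyclic AMP response element TGACGTCA and a consensus glucocorticoid response element.
Ciart, chr3:95882229-95882478, minus strand: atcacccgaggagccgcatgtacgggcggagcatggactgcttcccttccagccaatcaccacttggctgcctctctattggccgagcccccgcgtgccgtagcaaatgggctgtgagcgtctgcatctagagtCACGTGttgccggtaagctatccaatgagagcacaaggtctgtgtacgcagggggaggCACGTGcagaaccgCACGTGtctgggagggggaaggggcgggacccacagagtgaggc
Tef, first start, chr15:81802423-81802672, plus strand: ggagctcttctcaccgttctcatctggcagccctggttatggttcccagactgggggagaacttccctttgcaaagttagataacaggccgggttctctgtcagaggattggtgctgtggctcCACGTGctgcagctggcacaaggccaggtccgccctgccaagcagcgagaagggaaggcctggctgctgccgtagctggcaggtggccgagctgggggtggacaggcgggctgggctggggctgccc
Tef, second start, chr15:81811164-81811413, plus strand: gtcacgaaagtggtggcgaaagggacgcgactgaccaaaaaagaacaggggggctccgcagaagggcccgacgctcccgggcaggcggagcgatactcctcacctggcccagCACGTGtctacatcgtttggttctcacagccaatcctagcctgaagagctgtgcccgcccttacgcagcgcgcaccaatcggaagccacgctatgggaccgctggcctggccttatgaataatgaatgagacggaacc
Per1, first start, chr11:69098699-69098948, plus strand: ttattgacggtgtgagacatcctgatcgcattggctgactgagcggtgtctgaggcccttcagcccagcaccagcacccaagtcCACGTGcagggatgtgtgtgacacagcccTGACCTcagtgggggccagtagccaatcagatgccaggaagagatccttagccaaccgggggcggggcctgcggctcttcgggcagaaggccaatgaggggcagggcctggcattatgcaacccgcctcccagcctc
Cry1, chr10:85185055-85185304, minus strand: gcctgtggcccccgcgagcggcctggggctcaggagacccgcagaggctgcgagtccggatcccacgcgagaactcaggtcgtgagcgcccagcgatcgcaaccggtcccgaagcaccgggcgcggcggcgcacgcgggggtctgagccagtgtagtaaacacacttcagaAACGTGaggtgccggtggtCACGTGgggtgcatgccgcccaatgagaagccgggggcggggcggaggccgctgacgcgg
Per3, chr4:151044666-151044915, minus strand: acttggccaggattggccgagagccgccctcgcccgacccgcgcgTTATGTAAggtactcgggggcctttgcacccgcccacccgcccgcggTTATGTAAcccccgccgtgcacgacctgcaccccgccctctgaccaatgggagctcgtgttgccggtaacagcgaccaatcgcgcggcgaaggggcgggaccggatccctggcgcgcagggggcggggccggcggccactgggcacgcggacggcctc

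CACGTG was found in 5 of 13 member windows, which belonged to 4 of the 9 genes with a window, against 6.02% of all 32851 windows of this length. Ciart held 3 copies, the nearest at -44 to -39 from the start, and each Tef window held 1. In Per1 and Cry1 the CACGTG lay at -166 to -161 and -60 to -55. The D-box TTATGTAA was found in 0.819% of all windows and among the members in Per3, which had 2 copies. CACGTT, a weaker E-box, was present in Cry1 and Nr1d1 (3.85% of all windows), and AGGTCA, the half-site of REV-ERB and ROR receptors, in Clock, Per1 and Nr1d2 (14.0% of all windows). TTACGTAA, the cyclic AMP response element TGACGTCA and the glucocorticoid response element were not matched in these windows, and the window of Dbp held none of the motifs. A match is a run of letters and not a measured binding site. Per2 had no window in the table used.

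The representative probesets of all 10 genes lay above the median probeset of the array, and levels are log2 intensities averaged over the 46 arrays. Nr1d2 stood at 12.13, above 98% of all probesets, followed by Tef at 11.45 and Dbp at 11.39, while Nr1d1 at 7.23 was near the middle of the array. Since probesets differ in efficiency these levels do not rank the genes by abundance. The labelled tissue was checked against 12 markers of BNST and GABAergic neurons, which ran from 6.07 to 13.03. The GABA-synthesis genes Gad1 and Gad2 stood at 13.03 and 12.56, the vesicular GABA transporter Slc32a1 at 11.68 and corticotropin-releasing hormone Crh at 10.21. Lower markers were Lhx6 at 9.15, Prkcd at 8.77 and Esr1 at 8.57, and Nkx2-1 at 6.07 lay below the median probeset. Of markers of the suprachiasmatic nucleus, the transcription factor Six6 was low at 3.83 and the transcription factor Lhx1 stood at 7.10. Prok2 stood at 5.74, Grp at 6.76, Vip at 8.09, Rgs16 at 8.27 and Avp at 10.36. The neuropeptide of Avp is also made in BNST neurons. Array medians ran from 6.78 to 6.83 and arrays correlated at 0.981 to 0.998.

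The clearest CIE effect on the clock genes was at 0 h, at the end of the last ethanol session, where Ciart and Tef were higher in CIE mice. They were 2 of 10 members past an adjusted p of 0.01 (limma, moderated test adjusted by Benjamini-Hochberg over all 45037 probesets), against 3.09% of all genes called and 1.55% called higher. Of the 10 representative probesets 9 had a positive difference, and the median over the members was 0.13 on the log2 scale against 0.00 over all genes.

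Ciart, the repressor of CLOCK and BMAL1, ran from 7.65 to 7.92 in Ctrl 0 h mice with a median of 7.81, and from 8.30 to 8.62 in CIE 0 h mice with a median of 8.41. Each of the 6 CIE mice lay above all 6 Ctrl mice. The difference of 0.63 (SE 0.077, n = 6 per group; 1.54-fold) had a limma adjusted p of 5.31e-07. Leaving out any of the 46 arrays kept it between 0.59 and 0.65.

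Tef, a D-box activator, ran from 11.16 to 11.38 in Ctrl 0 h mice with a median of 11.31, and from 11.59 to 11.81 in CIE 0 h mice with a median of 11.74. Here too the groups did not overlap. The difference of 0.42 (SE 0.055, n = 6 per group; 1.34-fold) had a limma adjusted p of 1.13e-06. The further probesets of Tef were dimmer and moved less, with 0.26 (limma adjusted p 0.16) and 0.18 (0.63), and the mean of all probesets gave 0.29 (0.0204), which did not pass.

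The other positive differences at 0 h did not pass for the representative probesets. Nr1d2, a REV-ERB receptor, ran from 12.00 to 12.16 with a median of 12.09 in Ctrl and from 12.12 to 12.24 with a median of 12.22 in CIE. All but 1 of the 6 CIE mice were above every Ctrl mouse, and the difference of 0.13 (SE 0.033) missed the threshold with a limma adjusted p of 0.014. Its dimmer probeset gave -0.06 (0.943), the mean of both 0.03 (0.927), and a fit of only these groups 0.13 (0.237). Leaving out CIE 0 h replicate 17 or Ctrl 0 h replicate 30 brought the number of called members to 3. Dbp, the D-box partner of Tef, ran from 11.13 to 11.39 with a median of 11.30 in Ctrl and from 11.39 to 11.93 with a median of 11.52 in CIE, a difference of 0.29 (SE 0.084, adjusted p 0.035) with 4 of 6 CIE mice above all Ctrl mice. The second Dbp probeset differed by 0.28 (adjusted p 0.076), which matters here because the representative one is of the type whose probes can match more than 1 transcript.

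Among the Per and Cry repressors the members divided at 0 h. Per1 ran from 9.48 to 9.67 with a median of 9.63 in Ctrl and from 9.62 to 10.02 with a median of 9.86 in CIE, and 5 of 6 CIE mice were above all Ctrl mice (difference 0.24, SE 0.092, limma adjusted p 0.148). The Per3 representative differed by 0.13 (adjusted p 0.19), and a dimmer Per3 probeset was called with 0.22 (SE 0.054, adjusted p 0.0095) and 6 of 6 CIE mice above all Ctrl mice. It made 3 called probesets of the 24, against 2.4% of all probesets. Per2 showed a difference of 0.02 (95% interval -0.13 to 0.17) with overlapping mice, and its other probesets gave -0.15 (adjusted p 0.216) and -0.19 (0.41). Cry1 was the single member with a negative difference of its representative probeset, -0.13 (-0.30 to 0.05). Clock, the activator, differed by 0.05 (-0.03 to 0.13), and Nr1d1 by 0.09 (-0.05 to 0.23).

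**Figure D1:**
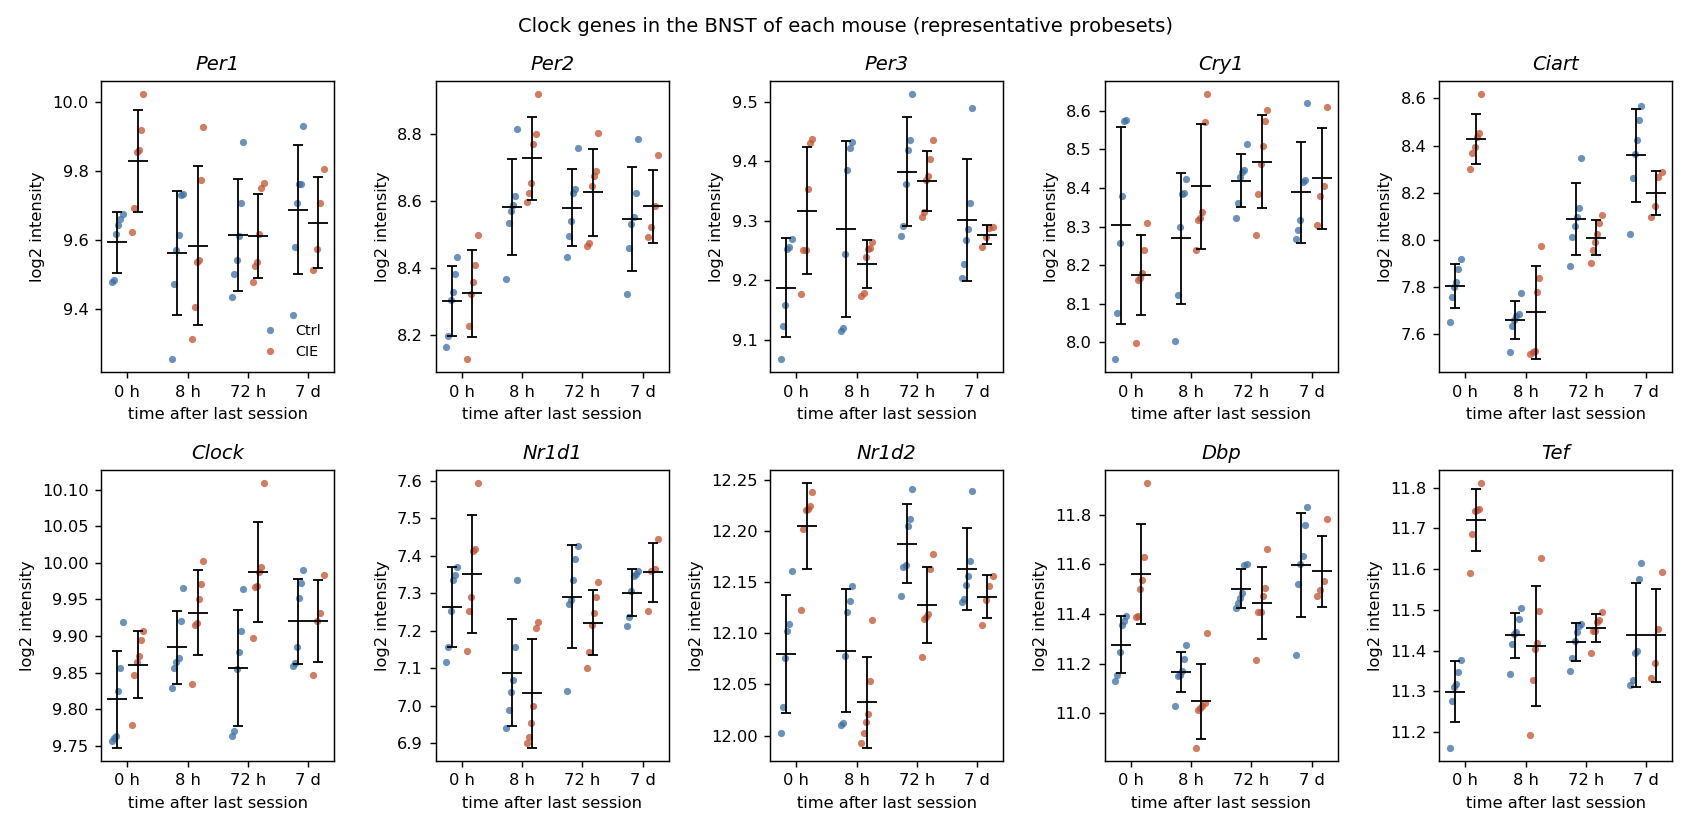
Log2 intensity of the representative probeset of each clock gene (vertical axes, scaled per gene) against time after the last session, with 1 point per mouse, Ctrl in blue and CIE in red, and black bars for the mean and SD of each group (n = 6, 4 for CIE 7 d). At 0 h the CIE mice lie above all Ctrl mice for Ciart and Tef, and at 8 h, 72 h and 7 d the treatments overlap for these genes.

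At later times no member was called between CIE and Ctrl. The limma counts were 0 of 10 at 8 h, 72 h and 7 d, where 0.742%, 0.687% and 0% of all genes were called, and at an unadjusted p under 0.05 they were 0, 1 and 0. Ciart at 8 h ran from 7.52 to 7.77 in Ctrl and from 7.51 to 7.97 in CIE, a difference of 0.03 (95% interval -0.12 to 0.19). For Tef the 8 h difference was -0.03 (-0.14 to 0.08). The intervals of both genes at 8 h therefore lie below their 0 h estimates. At 72 h the Ciart difference was -0.08 (-0.24 to 0.07) and that of Tef 0.03 (-0.08 to 0.14). At 7 d they were -0.16 (-0.33 to 0.01) and 0.00 (-0.12 to 0.12). The 1 member with an unadjusted p under 0.05 was Clock at 72 h, with 0.13 (0.05 to 0.21, adjusted p 0.075).

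**Figure D2:**
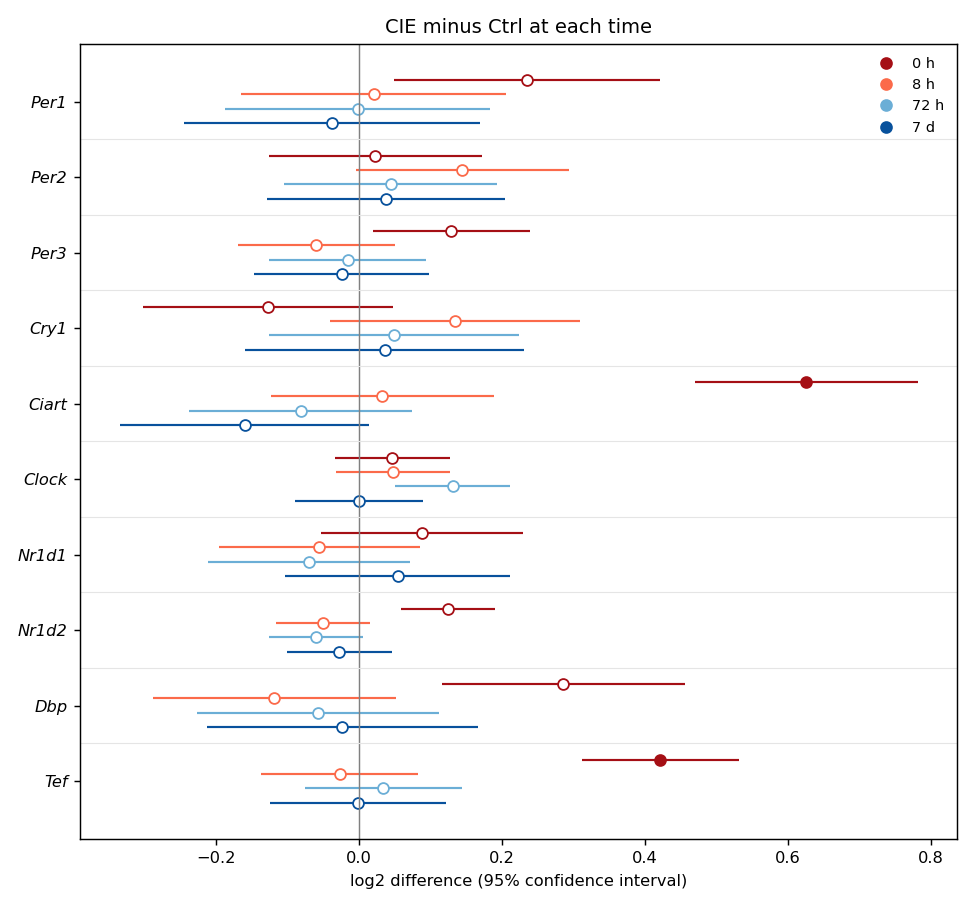
Log2 difference of CIE minus Ctrl (horizontal axis) for the 10 clock genes at 0 h, 8 h, 72 h and 7 d, with 95% confidence intervals from limma. Filled points passed an adjusted p of 0.01, and these are Ciart and Tef at 0 h, at 0.63 and 0.42.

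The change of the CIE effect with time was tested directly. Between 0 h and 8 h it fell by 0.59 for Ciart (limma adjusted p 0.00448) and by 0.45 for Tef (0.00182), and 0.121% of all genes were called in this test. From 0 h to 72 h it fell by 0.71 for Ciart (6.75e-05) and by 0.39 for Tef (0.0021), with 1.25% of all genes called. No other member passed, and between 8 h and 72 h none did (0.764% of all genes), where 0 members had an unadjusted p under 0.05. The Ciart change from 0 h to 8 h lost its call when any of 6 arrays was left out (CIE 0 h replicate 67, CIE 8 h replicates 15, 23 and 69, Ctrl 0 h replicate 64 and Ctrl 8 h replicate 58), with values of -0.57 to -0.55 and an adjusted p of at most 0.0147. Its change from 0 h to 72 h, and both changes of Tef, remained called in all 46 such fits. When a fit held only the groups compared, neither change from 0 h to 8 h passed (Ciart adjusted p 0.0204, Tef 0.0295). In that fit 0.0222% of all probesets were called, against 0.0799% in the main fit. The call of Tef rested on its representative probeset. The other Tef probesets gave -0.22 (0.882) and -0.09 (0.999) to 8 h and -0.38 (0.206) and -0.30 (0.595) to 72 h, and the mean of all 3 gave -0.25 (0.53) and -0.36 (0.0743), so none of these passed.

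In the Ctrl mice no representative probeset of a member passed between 0 h and 8 h. Of 10 members 0 were called by limma, 3 had an unadjusted p under 0.05, and 0.682% of all genes were called. Per2, the repressor with the largest difference in Ctrl, ran from 8.16 to 8.43 with a median of 8.32 at 0 h and from 8.37 to 8.81 with a median of 8.58 at 8 h, a difference of 0.28 (SE 0.074, adjusted p 0.0255). The Per2 groups overlapped at their edges. Its other probesets gave 0.12 (0.311) and -0.22 (0.265), and the mean of all 3 gave 0.06 (0.595). Nr1d1 differed by -0.18, Ciart by -0.14, Tef by 0.14 and Dbp by -0.11, each short of the threshold. For Tef the sign differed between probesets, since the others gave -0.32 (0.223) and -0.15 (0.463) and the mean of all 3 gave -0.11 (0.499). The dimmer Nr1d2 probeset differed by -0.77 (0.0502), against 0.00 for the representative. A further Per3 probeset passed with 0.25 (adjusted p 0.0055) while the representative gave 0.10, and it was the 1 called probeset of 24, against 0.713% of all probesets.

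Between the same hours CIE mice showed changes in 6 of 10 members, against 2.97% of all genes, and in 8 of 24 probesets, against 3.24% of all probesets. Ciart fell by 0.74 (SE 0.077, limma adjusted p 2.3e-08), from 8.30 to 8.62 at 0 h down to 7.51 to 7.97 at 8 h with no overlap. Dbp fell by 0.51 (6.66e-05), from a median of 11.52 to one of 11.03, and its second probeset fell by 0.59 (4.56e-05). The D-box partner Tef fell by 0.31 (0.00019). Both REV-ERB receptors fell, Nr1d1 by 0.32 (0.00243) and Nr1d2 by 0.17 (0.00046), and a much dimmer Nr1d2 probeset fell by 1.26 (0.000316). Without CIE 0 h replicate 67 Nr1d1 lost its call (-0.27, adjusted p 0.0142).

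Per2 moved the other way from these genes. It rose by 0.40 (SE 0.074, limma adjusted p 0.000316) between 0 h and 8 h in CIE, from a median of 8.34 to one of 8.71. Its second probeset differed by 0.25 (0.0109) and its dimmest by -0.09 (0.733), so the probesets of Per2 were not alike. Per1 (-0.25, adjusted p 0.0983), Cry1 (0.23, 0.102), Per3 (-0.09) and Clock (0.07) did not pass. When a fit held only the groups compared, Nr1d1, Nr1d2 and Tef lost their calls. This left 3 members called, where 2.37% of all probesets were called. Of these members, the test of the difference between the CIE and the Ctrl change is the change of the CIE effect given above, and it was passed by Ciart and Tef. For Dbp it gave -0.40 (adjusted p 0.185), for Nr1d2 -0.18 (0.10) and for Per2 0.12 (0.958).

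From 0 h to 72 h in CIE 3 of 10 members were called, against 7.08% of all genes. Ciart fell by 0.42 (limma adjusted p 0.000154) and Tef by 0.27 (0.000662), and Per2 rose by 0.30 (0.00423). From 0 h to 7 d Tef fell by 0.28 (0.00204) and was the 1 called member, against 3.52% of all genes, with Ciart at -0.23 (0.137). The Tef values of the 4 CIE 7 d mice were 11.33, 11.37, 11.45 and 11.59, and the last of these reached the lowest CIE 0 h mouse. The other Tef probesets differed from each other in CIE. The means of 1 were 7.18 at 0 h and 7.21 at 7 d, and those of the other 7.19 and 6.85.

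**Figure D3:**
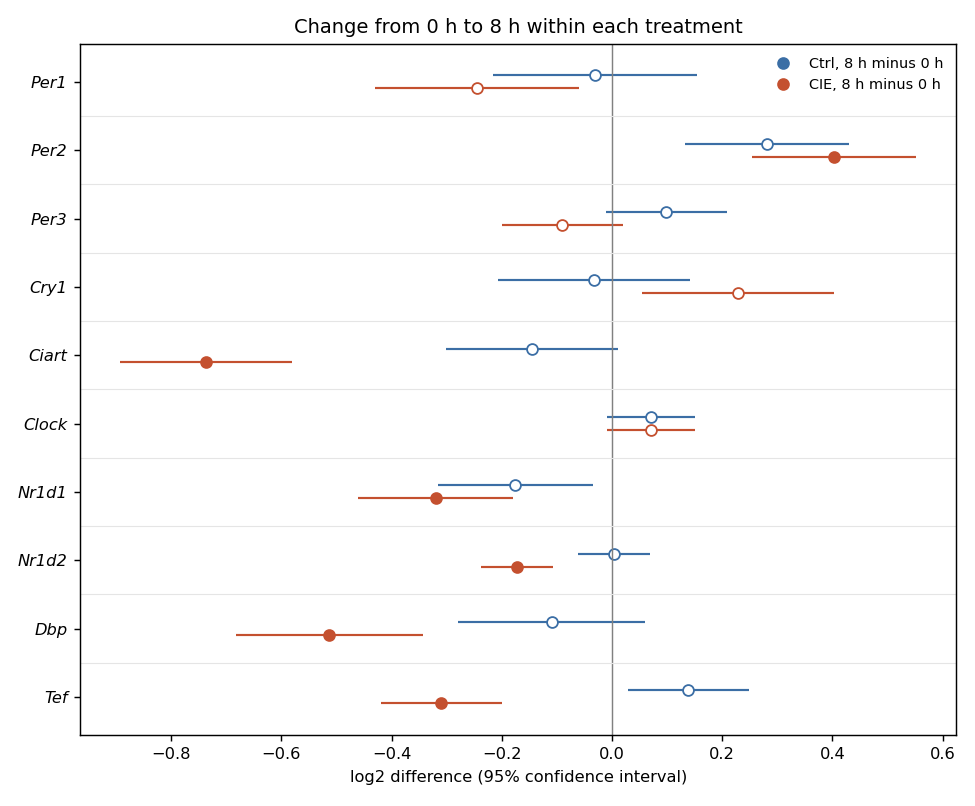
Log2 change from 0 h to 8 h (horizontal axis) of the representative probesets of the 10 clock genes within Ctrl (blue) and within CIE (red), with 95% confidence intervals from limma. Filled points passed an adjusted p of 0.01, which 6 genes did in CIE and 0 in Ctrl. The intervals of the treatments are apart for Ciart, Nr1d2, Dbp and Tef. Of these, Ciart and Tef passed the direct test of the change of the CIE effect, and Nr1d2 and Dbp did not.

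Part of the 0 h to 8 h contrast depended on where the 0 h mice of each treatment stood. Over the 8 groups Ciart was lowest in Ctrl 8 h (7.66 ± 0.08, SD, n = 6) and CIE 8 h (7.69 ± 0.20), then in Ctrl 0 h (7.80 ± 0.09), CIE 72 h (8.01 ± 0.07), Ctrl 72 h (8.09 ± 0.15), CIE 7 d (8.20 ± 0.09, n = 4), Ctrl 7 d (8.36 ± 0.20) and CIE 0 h (8.43 ± 0.11). In this order only the step from Ctrl 0 h to CIE 72 h was larger than the larger SD of the neighbouring groups. The Ctrl 0 h mean of Ciart thus lay below those of the other Ctrl groups taken whole days later. Ciart was higher in Ctrl 7 d than in Ctrl 0 h by 0.56 (limma adjusted p 5.75e-06, 6 of 6 mice above all Ctrl 0 h mice), the 1 member of 10 called there, against 2.94% of all genes and 0.236% called higher. In Ctrl 72 h it was 0.29 above Ctrl 0 h (adjusted p 0.0933), where 0 members were called (0.253% of all genes) and 6 had an unadjusted p under 0.05. All 10 members had positive differences from Ctrl 0 h in both. Markers of striatal neurons had positive differences as well, 7 of 7 with a median of 0.49 in Ctrl 7 d and of 0.29 in Ctrl 72 h, with 0 called, and their part in these differences was not tested.

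Comparisons of CIE 0 h with the later Ctrl groups were therefore added after the data were seen. Against Ctrl 72 h Ciart was higher by 0.34 (limma adjusted p 0.00253) and Tef by 0.30 (0.000158). Against Ctrl 7 d Ciart differed by 0.07 (0.692), which did not pass, while Tef was higher by 0.28 (0.000365). The dimmer Tef probesets were not higher than in Ctrl 7 d. Their means were 7.18 in CIE 0 h and 7.61 in Ctrl 7 d for 1, and 7.19 and 7.21 for the other. Both lay above their Ctrl 72 h means of 6.98 and 6.92. Dbp was 0.06 above Ctrl 72 h and 0.03 below Ctrl 7 d (log2 -0.03), and neither passed. On the representative probeset the Tef level in CIE 0 h (11.72 ± 0.08, SD, n = 6) was set apart from the next group, CIE 72 h (11.46 ± 0.03), by more than either SD. The other 7 group means of this probeset lay between 11.30 and 11.46, while both dimmer probesets were highest in Ctrl 7 d.

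Taking the mean of Ctrl 0 h, 72 h and 7 d as the reference for Ctrl 8 h gave calls for 2 members. It also raised the share of all probesets called, to 4.67% from 0.713% against Ctrl 0 h alone. Ciart was lower at 8 h by this measure, with -0.43 (limma adjusted p 1.98e-05), and Dbp with -0.29 (0.00409). The same reference within CIE, with 2.05% of all probesets called, gave -0.52 for Ciart (3.58e-07) and -0.48 for Dbp (1.03e-05). It also called Nr1d1 (-0.28) and Nr1d2 (-0.12, 0.00328). Under it Tef (-0.13, 0.106) and Per2 (0.22) were no longer called in CIE. Ciart and Dbp were thus lower at 8 h than the mean of the other times in each treatment.

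Across all 4 times the moderated F test called Ciart (adjusted p 6.07e-08), Dbp (0.000588) and Per2 (0.00816) among the Ctrl groups, 3 of 10 members against 11% of all genes. Among the CIE groups it called Ciart (1.84e-08), Dbp (2.6e-05), Tef (0.000113), Per2 (0.000665), Nr1d2 (0.00159) and Nr1d1 (0.00248), 6 of 10 against 8.77% of all genes. Dbp was lowest in CIE 8 h (11.05 ± 0.15, SD, n = 6), Ctrl 8 h (11.17 ± 0.08) and Ctrl 0 h (11.28 ± 0.12), and the other 5 groups stood between 11.45 and 11.60. Of its steps only that from Ctrl 0 h to CIE 72 h was larger than the SD. Per2 was lowest at 0 h in both treatments, with 8.30 ± 0.10 in Ctrl and 8.32 ± 0.13 in CIE, and ran from 8.55 to 8.73 in the other groups, so that the step between CIE 0 h and the next group, Ctrl 7 d, was the 1 beyond the SD. Clock had group means from 9.81 to 9.99 and was called in neither F test.

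Beside the members, 25 of 29 listed further genes of the clock had a named probeset. CIE and Ctrl differed at 0 h for 1 higher and 1 lower gene of these (1.55% and 1.54% of all genes), and for 0 at 8 h, 72 h and 7 d. The higher gene was Cirbp, a cold-inducible RNA-binding protein that affects clock amplitude, with 0.31 (SE 0.07, limma adjusted p 0.00288). The lower gene was Sfpq, a splicing factor found in PER complexes, with -0.24 (0.00694), and of its 6 probesets a second was called lower (-0.50, 2.86e-06) and a pair had small positive differences. Arntl, which encodes BMAL1, differed by -0.11 (0.406), and Npas2, a paralog of Clock that can stand in for it, by 0.53 (0.14). The D-box repressor Nfil3 differed by -0.26 (0.0882), a sign opposite to that of Tef and Dbp, and the third D-box activator Hlf by 0.02 (0.95). The median over the 25 genes was -0.01.

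Between 0 h and 8 h these genes gave 3 higher and 1 lower in CIE (2% and 0.973% of all genes) and 1 higher in Ctrl (0.594%). In CIE, Nfil3 rose by 0.37 (limma adjusted p 0.0068), Sfpq by 0.49 (1.72e-07) and the casein kinase subunit Csnk2a1 by 0.22 (0.00038), and Cirbp fell by 0.35 (0.000667). Of the other Csnk2a1 probesets, 4 of 5 had negative differences and none was called. Sfpq also rose in Ctrl, by 0.28 (0.00462). Of its other probesets a second rose in CIE by 0.67 (1.47e-08), while a pair had negative differences in CIE, -0.47 (0.0216) and -0.33 (0.324), and in Ctrl, -0.36 (0.114) and -0.48 (0.134). Nfil3 and the D-box activators Dbp and Tef thus changed in opposite directions in CIE. The third activator Hlf did not fall with them. All 4 measured genes of its list, which holds the ROR receptors and Nfil3, had positive differences (0.01 to 0.37). Nfil3 differed by 0.17 in Ctrl (limma adjusted p 0.317), and its change of CIE effect was 0.20 (0.858), so neither passed.

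Glucocorticoid-induced genes were followed beside the members since Per1 is a known target. Of 13 such genes 10 were called higher in CIE at 0 h with a median of 0.91, and 9 at 8 h with a median of 0.61, and 0 at 72 h and 7 d. Over all genes 1.55% were called higher at 0 h and 0.445% at 8 h. At 8 h Per1 differed by 0.02 (95% interval -0.16 to 0.21). The list was chosen with earlier results of these data known, so its height is not an independent measure of glucocorticoid action. Whether glucocorticoids acted on Per1 was not tested. Among mice of the same group no member passed a test against the mean of the list (0 of 10 after adjustment in permutation tests, Pearson r from -0.32 for Dbp to 0.28 for Nr1d1, 46 mice).

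Deviations of single mice were compared between members. After subtraction of the group means, 15 of 45 pairs of members passed an adjusted p of 0.05 in a permutation test within groups (100000 resamples, two-sided), and all 15 were positive. No pair with Clock or Per3 passed, and 7 of the 9 pairs with Clock were negative (r from -0.32 to 0.15). The smallest r among the 15 was 0.41, and 7.7% of all pairs of named genes on the array reached it, which is given as a description only. Dbp and Tef had r = 0.67 (rho = 0.65, unadjusted p 1e-05, the smallest the resamples can give, adjusted p 0.000225) and 0.67 without the 2 mice farthest from the median. Per1 and Per2 had r = 0.66 (rho = 0.61, adjusted p 0.000225, 0.60 without 2 mice), and Per2 and Ciart r = 0.62 (rho = 0.59, adjusted p 0.0003, 0.58 without 2 mice). With Ctrl mice alone 9 pairs passed and with CIE mice alone 3.

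Markers listed for striatal neurons moved with the same deviations. Whether their RNA came from neighbouring striatum or from cells of the BNST was not tested. The mean of 7 measured markers of 9 listed (Drd1, Drd2, Ppp1r1b, Rgs9, Pde10a, Penk and Tac1) correlated with Dbp at r = 0.82 (rho = 0.77), with Tef at 0.76 (0.77), with Per1 at 0.71 (0.70), with Per2 at 0.71 (0.64), with Ciart at 0.56 (0.51) and with Cry1 at 0.45 (0.41). These 6 and Nr1d1 (0.33, rho = 0.31) passed an adjusted p of 0.05 over the 10 members by the permutation test of r, and Clock, Per3 and Nr1d2 did not. Of the other named genes on the array, 12.3% had an r with the marker mean at least as high as that of Nr1d1. Without the 2 mice farthest from the median of the marker mean, r was 0.76 for Dbp, 0.73 for Tef, 0.64 for Per1, 0.65 for Per2, 0.45 for Ciart, 0.46 for Cry1 and 0.25 for Nr1d1, whose rho had an adjusted p of 0.0821. When the marker mean was regressed out of the deviations, 0 of 45 pairs passed.

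**Figure D4:**
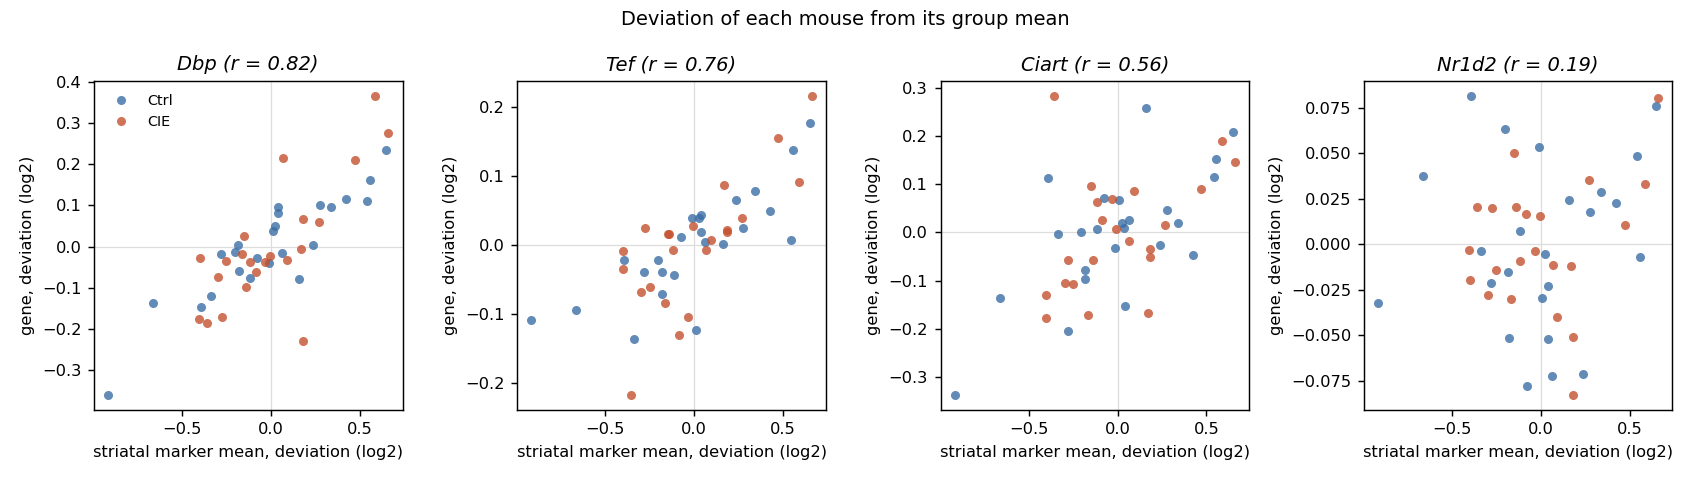
Deviation of each mouse from its group mean for Dbp, Tef, Ciart and Nr1d2 (vertical axes, log2) against that of the mean of 7 striatal neuron markers (horizontal axis, log2), with 1 point per mouse, Ctrl in blue and CIE in red. Dbp (r = 0.82), Tef (0.76) and Ciart (0.56) rise with the marker mean and Nr1d2 (0.19) has no clear slope.

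The groups overlapped in the level of the striatal markers. Their mean ran from 9.79 to 10.61 in Ctrl 0 h and from 10.11 to 11.10 in CIE 0 h, and from 9.77 to 11.34 in Ctrl 7 d. At 0 h all 7 markers had positive CIE differences, with a median of 0.33, and 0 of 7 were called at any time. Other cell types moved at 0 h as well, where 1.55% of all genes were called higher and 1.54% lower. Of 9 endothelial and mural markers 3 were called lower in CIE (Kdr -0.40, Vtn -0.41 and Kcnj8 -0.55) and 1 higher (Slc2a1, 0.34), with a median of -0.23 and a mean level of 9.15 to 9.43 in Ctrl 0 h and 8.97 to 9.17 in CIE 0 h. Of 7 microglial markers 1 was called lower (Fcrls, -1.30), with a median of -0.24 and a mean level of 9.76 to 10.15 in Ctrl 0 h and 9.41 to 9.81 in CIE 0 h. Of 8 choroid plexus and ependymal markers 1 was called higher, with a median of 0.11. At 72 h the mean level of BNST and GABAergic markers ran from 10.29 to 10.46 in Ctrl and from 10.58 to 10.76 in CIE. Microglial means ran from 10.02 to 10.16 and from 9.58 to 9.91, and oligodendrocyte means from 12.31 to 12.40 and from 12.07 to 12.23. Astrocyte means did not overlap either (11.66 to 11.76 and 11.42 to 11.64), while those of the other cell type lists did. The part of these cell types in the 0 h and 72 h differences of the members, and in the changes between these times, was not tested. With the striatal marker mean of each array as a covariate, added after the data were seen, the 0 h difference was 0.56 for Ciart (limma adjusted p 3.76e-07) and 0.36 for Tef (7.51e-08), both still called. For Dbp it was 0.18 (0.0396) and for Per1 0.13 (0.344). The 0 h to 8 h changes in CIE of Ciart (-0.69), Dbp (-0.44), Tef (-0.27) and Nr1d2 (-0.17) remained called with the covariate. These fits adjust for striatal markers only. Endothelial, microglial and other cell type means were not entered, and the part of tissue composition in the differences was not tested. In tissue RNA a different number of cells of a type and a different amount of RNA per cell cannot be told apart.

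Over all 46 arrays the genes whose profile was most like that of a member were taken by Pearson r among 18081 genes outside the lists used here. For Tef these were Foxo3 (0.87), Hrk (0.83) and Thbs3 (0.82), and for Dbp Rab33a (0.86), Plxnd1 (0.83) and Scn4b (0.80). Ciart was most like Naaa (0.79), Cstad (0.77) and Crtac1 (0.76), and Crtac1 was also nearest to Nr1d1 (0.73). For Per1 they were Mast3 (0.76), Mprip (0.76) and Atp2b2 (0.75), and for Per2 Spred2 (0.79). Group differences and spread among mice both enter these values.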

How the data were processed

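BNST RNA of 46 mice was hybridized to arrays, 1 mouse per array. The deposited values are log2 probeset intensities that the authors made by RMA and quantile normalization within hybridization batches, a second quantile normalization over all arrays and ComBat for the batch. The sources do not state the batch of each array, so no within-batch value could be computed, and ComBat may have removed or added part of a difference where groups were uneven over batches.

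Gene symbols came from the platform annotation, in which 34945 probesets had 1 symbol, 932 several and 9160 none. In limma 3.58.1 (R 4.3.3), 1 linear model with a mean per group used every array (8 groups, 38 residual and 3.94 prior degrees of freedom). P values were adjusted by Benjamini-Hochberg over 45037 probesets per comparison, with a threshold of 0.01. Deviations among mice were tested with 100000 permutations within groups (Python 3.11.15, NumPy 2.4.6). The test was tried on simulated data. The members and gene lists were chosen with earlier results of these data known. The text names all members, and further clock genes from a written list, mainly those that passed. Alternatives were array weights, aligned medians, covariates, a filter at a mean of 5, other thresholds, probeset means and leaving out each array. Labels number the mice but do not say more of their origin, so p values measure the spread between these mice.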

Additional observations from a re-analysis of the deposited data

Results flagged for a closer look

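The CIE effect on Ciart differed between times, with a change of -0.59 on the log2 scale from 0 h to 8 h (limma adjusted p 0.00448) and of -0.71 from 0 h to 72 h (6.75e-05). That on Tef differed likewise, by -0.45 (0.00182) and -0.39 (0.0021). In a search for single mice set apart from their group by Dixon's criterion, 2 of 80 combinations of gene and group were found, and chance gives about 1 in 20. Both concern Nr1d2. CIE 0 h replicate 17 was lowest at 12.12, with the nearest mouse at 12.20, and Ctrl 7 d replicate 36 was highest at 12.24, with the nearest at 12.17. The gaps were 0.688 and 0.634 of the range of the group, against a critical value of 0.625.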

How the results depend on the processing

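Across 22 results, 183 of 209 comparisons under other settings stayed on their side of the threshold or within 1.5 times the count. So did 952 of 966 comparisons from the 46 fits without 1 array, which did not cover the pairs of members. No called gene difference reversed in sign. Differences of members that were not called did change sign in some fits, as for Per2 at 0 h in 7. Percentages here are shares of all probesets called, and were not counted at an adjusted p of 0.05. For members called at 0 h (2, 2.4%), an adjusted p of 0.05 gave 4. The mean of all probesets of a gene gave 1 (3.18% of genes), and CIE 0 h against Ctrl 7 d 1 (4.29%). For Ctrl 8 h against 0 h (0, 0.713%), 2 residual components as covariates gave 1 (5.47%), and an adjusted p of 0.05 gave 1. The striatal marker mean as a covariate gave 1 (0.95%), Per2 with 0.25 (limma adjusted p 0.00717). The mean of Ctrl 0 h, 72 h and 7 d as reference gave 2 (4.67%). For CIE 8 h against 0 h (6, 3.24%), fitting only the groups compared gave 3 (2.37%). For the change of effect from 0 h to 8 h (2, 0.0799%), fitting only the groups compared gave 0 (0.0222%). The mean of all probesets gave 1 (0.17% of genes), and for the change to 72 h (2, 0.988%) it gave 1 (1.26% of genes). Pairs that varied together (15) fell to 9 in Ctrl mice, 3 in CIE mice and 0 with the striatal marker mean removed. The causes of these differences were not tested. Leaving out each array gave 2 to 3 members called at 0 h, 0 to 0 at 8 h, 72 h and 7 d, 0 to 1 for Ctrl 8 h against 0 h (1 without Ctrl 8 h replicate 66), 5 to 6 for CIE 8 h against 0 h, 1 to 2 for the change to 8 h, 2 to 3 for that to 72 h and 0 to 0 between 8 h and 72 h. No paired analysis was possible because the groups share no replicate numbers. The table holds no background signal per probeset.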
